A study of Mus musculus with 32 samples.

Results

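The DNA damage checkpoint kinases Atm, Atr, Prkdc, Chek1, Chek2 and Wee1 were followed across irradiation and genotype in mouse embryonic fibroblasts. They were chosen by name, 6 of the 18161 genes named on the arrays. All probe sets annotated to them were taken, which gave 14 of the 45265 probe sets on both array types, 10 on array A and 4 on array B. A probe set is a group of short oligonucleotides that together read 1 stretch of transcript.

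RNA came from early-passage primary mouse embryonic fibroblasts, which are cells grown out of embryos and not an immortal line. The 4 groups were irradiated Oct-1 mutant, unirradiated Oct-1 mutant, irradiated wild type and unirradiated wild type cells. Each group had 4 replicates, and by their titles the 16 extracts were each hybridised to both array types. Oct-1 is the POU domain transcription factor encoded by Pou2f1, and the annotation named 0 probe sets for it, so the level of the mutated gene was not analysed here. The sources used here do not give the mutant allele, the strain background, the radiation dose, the time after irradiation or whether replicates came from separate embryos. So the p-values measure only the spread between these samples, and 4 arrays per group limit the precision.

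Atm, Atr and Prkdc encode large kinases of 1 family that are switched on at damaged DNA. Atm answers double-strand breaks, Atr answers single-stranded DNA coated with replication protein A, and Prkdc encodes the catalytic subunit of DNA-PK, which acts with the Ku proteins in end joining. Atm activates Chek2 and Atr activates Chek1, and both of these kinases act on p53 and on the Cdc25 phosphatases. Wee1 places an inhibitory phosphate on Cdk1 and so holds cells out of mitosis. Most of this signalling runs through phosphorylation, which RNA arrays do not read.

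Wee1 RNA was lower after irradiation in both genotypes, called on 1 of its 2 probe sets. Chek2 RNA was higher after irradiation in wild type cells and when both genotypes were averaged, while its rise in Oct-1 mutant cells was not called. Averaged over genotypes, Atr RNA was lower after irradiation on its array A probe set and was not called on those of array B. Between genotypes, Atm RNA was lower in Oct-1 mutant cells on 1 of its 2 probe sets, with and without irradiation. Averaged over irradiation, Atr RNA was also lower in Oct-1 mutant cells, again only on its array A probe set. Prkdc was called in no comparison. Chek1 was called in none without a block. With the replicate number as a block, 1 of its probe sets was called lower after irradiation in Oct-1 mutant cells (adjusted p = 0.0300) and averaged over genotypes (adjusted p = 0.00856). A limma fit with the run of title numbers as a block gave both calls too (adjusted p = 0.0424 and 0.0125). Differences are on the log2 scale, each with its standard error (SE) from the limma fit, and levels are log2 means ± SD over 4 replicates. A called probe set is one whose adjusted p, taken over the whole array type, was under 0.05. Levels are set side by side only within a probe set.

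**Figure D1:**
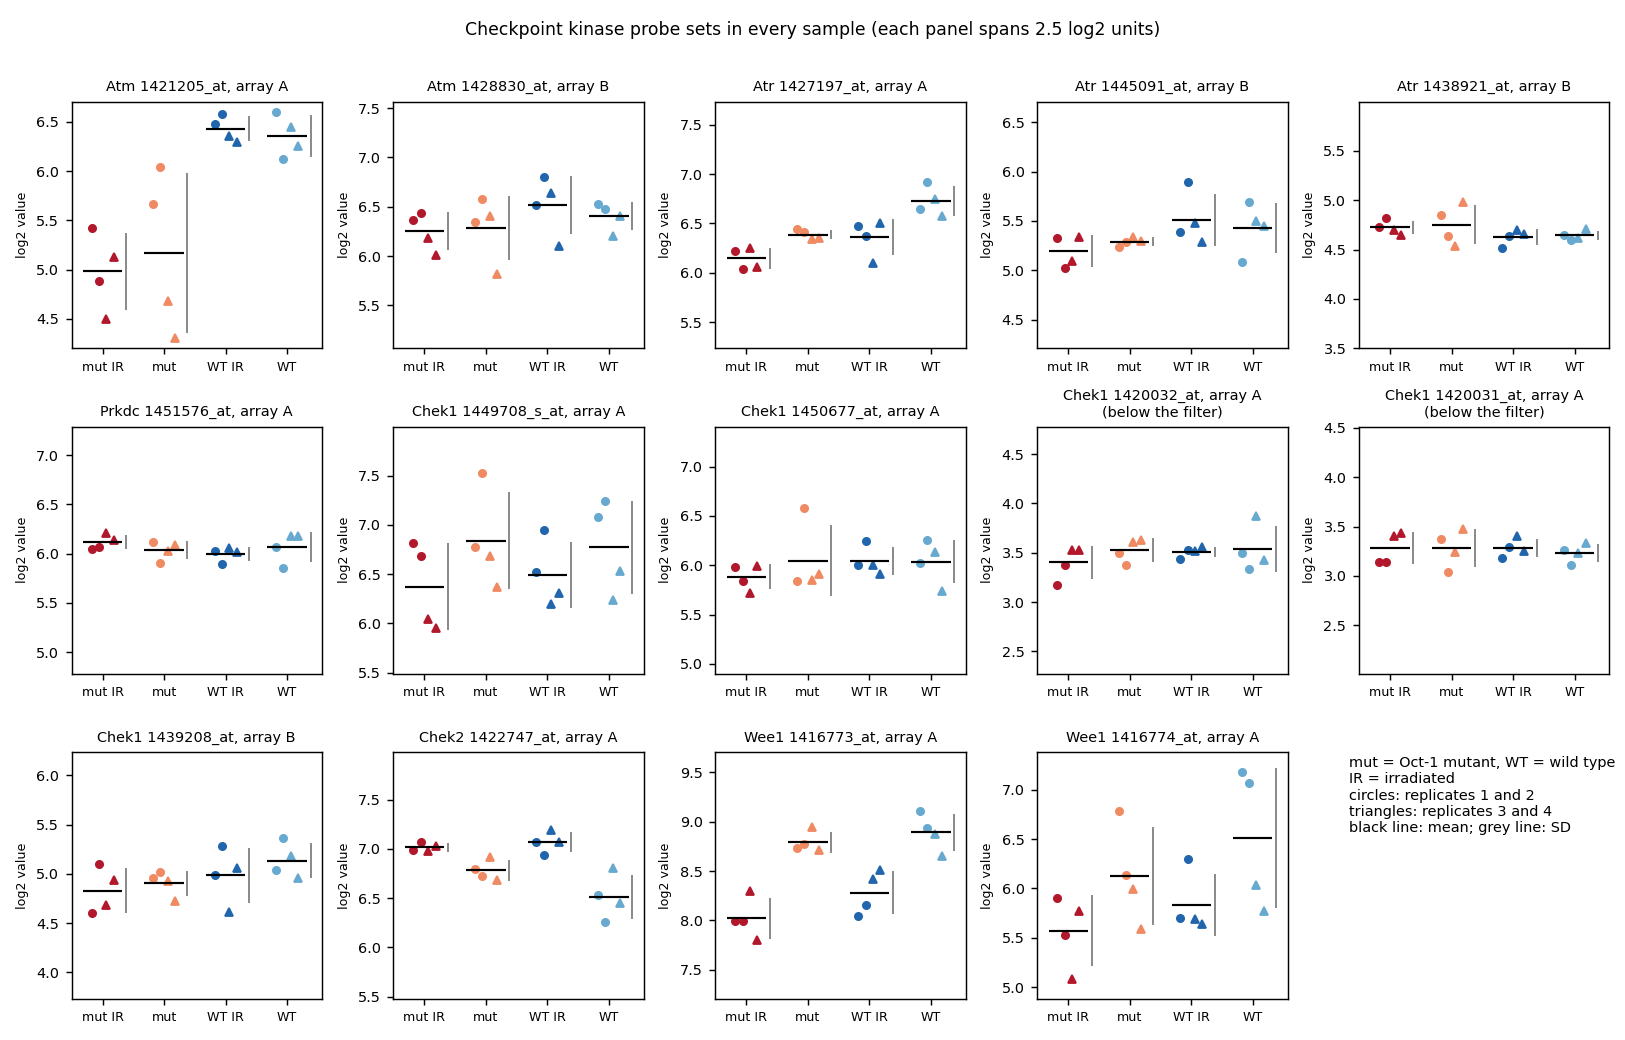
The log2 value (y axis) of each of the 14 checkpoint kinase probe sets in every sample, by group (x axis), with the group mean as a black line and the SD as a grey line. All 8 Oct-1 mutant points of Atm 1421205_at lie below all 8 wild type points, and the irradiated points of Wee1 1416773_at lie below the unirradiated ones in both genotypes.

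The promoters of the 3 kinase genes with a called change and a sequence at hand are shown here, since Oct-1 is known to bind an octamer element. They come from the RefSeq promoter table of build GRCm38.p6, which held 4 of the 6 genes. Each runs 250 bases before to 50 after the start position that the promoter table uses. For Atm and Chek2 that position lies inside the gene's span in the same build. The span of Atm, on the minus strand, has its upper end at 53536828, and that of Chek2 begins at 110839800. Atm is at chr9:53536622-53536921 on the minus strand, Atr at chr9:95857347-95857646 on the plus strand and Chek2 at chr5:110839733-110840032 on the plus strand. Capitals mark CCAAT box matches, which read ATTGG on the other strand.
Atm: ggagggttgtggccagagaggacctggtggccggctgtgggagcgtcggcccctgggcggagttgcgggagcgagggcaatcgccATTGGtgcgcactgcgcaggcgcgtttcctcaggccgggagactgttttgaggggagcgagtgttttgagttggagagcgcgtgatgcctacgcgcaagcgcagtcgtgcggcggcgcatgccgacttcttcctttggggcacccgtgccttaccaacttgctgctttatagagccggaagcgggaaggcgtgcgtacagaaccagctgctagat
Atr: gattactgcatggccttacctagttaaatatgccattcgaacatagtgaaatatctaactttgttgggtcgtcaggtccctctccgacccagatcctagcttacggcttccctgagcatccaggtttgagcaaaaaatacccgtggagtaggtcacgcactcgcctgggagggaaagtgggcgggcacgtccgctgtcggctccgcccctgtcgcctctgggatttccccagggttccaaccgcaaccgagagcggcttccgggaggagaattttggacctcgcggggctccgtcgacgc
Chek2: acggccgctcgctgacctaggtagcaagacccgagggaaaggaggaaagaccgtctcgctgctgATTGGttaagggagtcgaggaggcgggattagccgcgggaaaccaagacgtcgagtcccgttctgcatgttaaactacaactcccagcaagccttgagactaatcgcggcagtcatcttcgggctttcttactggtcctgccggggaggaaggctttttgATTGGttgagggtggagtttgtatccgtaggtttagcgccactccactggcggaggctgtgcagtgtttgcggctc

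The octamer ATGCAAAT was searched on both strands and had 0 matches in the promoters of Atm, Atr, Chek1 and Chek2, while 1.74% of 32851 promoters of the same length held it. The CCAAT box (CCAAT) matched once in Atm, 165 bases before the start position that the promoter table uses. In Chek2 it matched at 2 places, 186 and 26 bases before that position, and 37.4% of all promoters held it. The E2F-type site GGCGGGAA matched only in Chek1 among the 4 (2.19% of all promoters). The CHR element TTTGAA had 0 matches in the 4 (17.9% of all promoters), and the p53 consensus with its decamers up to 13 bases apart also had 0 (0.0731%). A match is a run of letters and was not tested for binding, and no match says only that these letters are not in this window.

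Of the 14 probe sets, 12 had a mean over all arrays at or above the 40th percentile of their array type and were tested. The 2 others, Chek1 1420031_at and 1420032_at, had group means between 3.23 and 3.54 on array A, against the 4.97 that the filter required. In bulk RNA, fewer cells of a type and less RNA per cell cannot be told apart. The replicates fall into 2 runs of title numbers, replicates 1 and 2 in the first and replicates 3 and 4 in the second, and each group has 2 replicates in each run. Values within each run are given beside the called results.

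Irradiation in Oct-1 mutant cells called 1 of the 12 tested probe sets, Wee1 downward, against 2.67% of all 27083 probe sets tested. In wild type cells it called 2 of the 12, Chek2 upward and Wee1 downward, against 2.31%. With both genotypes averaged it called 3, adding Atr downward, against 7.51%. All of these calls were on array A, which holds 8 of the 12 and where 12.9% of all tested probe sets were called in the averaged comparison. With the replicate number as a block these counts were 2 in Oct-1 mutant cells, 3 in wild type cells and 5 averaged, while the calls over all probe sets also grew, to 1937, 1654 and 4040, against 724, 625 and 2034 without the block. The groups did not overlap for 3 of the 12 in Oct-1 mutant cells (7.16% of all) and for the same 3 in wild type cells (7.74% of all), namely Atr 1427197_at, Chek2 1422747_at and Wee1 1416773_at. The median difference over the 12 was -0.13 in Oct-1 mutant cells and -0.045 in wild type cells, against medians of 0.00 to 0.03 over all probe sets of either array type.

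Wee1, the inhibitory kinase of Cdk1, had the largest irradiation effect among the called kinases. Its probe set 1416773_at read 7.99, 7.99, 8.30 and 7.80 in irradiated Oct-1 mutant cells, against 8.73, 8.77, 8.95 and 8.71 in unirradiated ones. In wild type it read 8.05, 8.15, 8.42 and 8.51 in irradiated cells, against 9.11, 8.94, 8.88 and 8.65 in unirradiated cells. Every irradiated sample of a genotype lay below every unirradiated sample of that genotype. Wee1 fell by 0.77 in Oct-1 mutant cells (SE 0.13, adjusted p = 0.00172) and by 0.61 in wild type cells (SE 0.13, adjusted p = 0.0105), which left 0.59 and 0.65 of the unirradiated level. Averaged over genotypes the fall was 0.69 (SE 0.09, adjusted p = 8.8e-05).

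The size of the Wee1 fall in wild type differed between the runs. It was -0.92 in the first run and -0.30 in the second, where it was not called (adjusted p = 0.416), while in Oct-1 mutant cells it was -0.76 and -0.78. The second Wee1 probe set, 1416774_at, carries the same target record and, over both runs together, gave falls of similar size with a wider spread. It read 5.90, 5.53, 5.08 and 5.78 in irradiated Oct-1 mutant cells, against 6.78, 6.13, 5.99 and 5.59 in unirradiated ones. In wild type it read 5.70, 6.30, 5.69 and 5.64 in irradiated cells, against 7.18, 7.07, 6.03 and 5.77 in unirradiated cells. Irradiated and unirradiated samples overlapped in both genotypes, and the averaged difference was -0.62 (SE 0.22, adjusted p = 0.0849). With the replicate number as a block the same difference had an adjusted p of 0.00926. It was -0.93 in the first run and -0.30 in the second, where limma did not call it (adjusted p = 0.287). In wild type cells the first and second runs gave -1.13 and -0.24 on this probe set, and in Oct-1 mutant cells -0.74 and -0.36.

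Across the groups Wee1 1416773_at averaged 8.02 ± 0.21 in irradiated Oct-1 mutant, 8.28 ± 0.22 in irradiated wild type, 8.79 ± 0.11 in unirradiated Oct-1 mutant and 8.89 ± 0.19 in unirradiated wild type cells, from low to high (SD, n = 4 each). Neighbours of the same irradiation state did not pass the test of genotype. That difference was -0.26 in irradiated cells (SE 0.13, adjusted p = 0.369) and -0.10 in unirradiated cells (SE 0.13, adjusted p = 0.814).

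Chek2, the kinase that Atm activates after double-strand breaks, moved the other way. Its probe set 1422747_at read 6.99, 7.07, 6.98 and 7.02 in irradiated Oct-1 mutant cells, against 6.80, 6.72, 6.92 and 6.69 in unirradiated ones. In wild type it read 7.07, 6.94, 7.20 and 7.07 in irradiated cells, against 6.54, 6.26, 6.81 and 6.45 in unirradiated cells. The irradiated samples lay above the unirradiated ones in both genotypes without overlap. In Oct-1 mutant cells the difference was 0.23 (SE 0.10, adjusted p = 0.256) and was not called. In wild type cells Chek2 rose 1.47-fold (log2 0.56, SE 0.10, adjusted p = 0.00518), by 0.61 within the first run and 0.50 within the second. The second run alone, with 2 replicates a group, did not call it (adjusted p = 0.131). Averaged over genotypes Chek2 rose by 0.40 (SE 0.07, adjusted p = 0.00212).

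The Chek2 levels from low to high were 6.51 ± 0.23 in unirradiated wild type, 6.78 ± 0.10 in unirradiated Oct-1 mutant, 7.01 ± 0.04 in irradiated Oct-1 mutant and 7.07 ± 0.10 in irradiated wild type cells. The unirradiated groups differed by 0.27 (mutant minus wild type, SE 0.10, adjusted p = 0.221) and the irradiated groups by -0.06 (SE 0.10, adjusted p = 0.898), and neither difference was called.

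Atr, the kinase of replication stress, had 3 probe sets, of which the array A probe set 1427197_at gave a call. It read 6.22, 6.04, 6.26 and 6.06 in irradiated Oct-1 mutant cells, against 6.44, 6.41, 6.34 and 6.35 in unirradiated ones. In wild type it read 6.48, 6.38, 6.10 and 6.50 in irradiated cells, against 6.65, 6.93, 6.75 and 6.58 in unirradiated cells. Irradiated samples lay below unirradiated samples in both genotypes, with gaps of under 0.1 at the nearest points. The difference was -0.24 in Oct-1 mutant cells (SE 0.10, adjusted p = 0.234) and -0.36 in wild type cells (SE 0.10, adjusted p = 0.0709), and the second passed with the replicate number as a block (adjusted p = 0.0437). Averaged over genotypes Atr fell by 0.30 (SE 0.07, adjusted p = 0.0126), by 0.33 in the first run and 0.28 in the second. Neither run alone called it (adjusted p = 0.069 and 0.165).

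The 2 Atr probe sets of array B, whose target records are expressed sequence tags, gave averaged differences close to 0. They were -0.02 for 1438921_at (SE 0.06, adjusted p = 0.921) and -0.01 for 1445091_at (SE 0.10, adjusted p = 0.990). Their group means spanned 4.63 to 4.75 and 5.20 to 5.51.

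Chek1, the kinase that Atr activates, was not called on any of its 3 tested probe sets. The brightest, 1449708_s_at, read 6.82, 6.68, 6.04 and 5.95 in irradiated Oct-1 mutant cells, against 6.77, 7.53, 6.68 and 6.37 in unirradiated ones. In wild type it read 6.52, 6.95, 6.19 and 6.31 in irradiated cells, against 7.08, 7.24, 6.23 and 6.54 in unirradiated cells. In every group both replicates of the first run lay above both replicates of the second, and irradiated and unirradiated groups overlapped. The difference was -0.46 in Oct-1 mutant cells (SE 0.28, adjusted p = 0.435) and -0.28 in wild type cells (SE 0.28, adjusted p = 0.748). With the replicate number as a block the difference in Oct-1 mutant cells had an adjusted p of 0.0300, and the averaged difference of -0.37 had 0.00856, against 0.257 without the block. The other Chek1 probe sets gave averaged differences of -0.08 for 1450677_at (SE 0.11, adjusted p = 0.731) and -0.11 for 1439208_at on array B (SE 0.10, adjusted p = 0.751).

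Prkdc, the catalytic subunit of DNA-PK, was called in none of the 7 comparisons. Its probe set 1451576_at averaged 6.12 ± 0.07 in irradiated Oct-1 mutant, 6.04 ± 0.09 in unirradiated Oct-1 mutant, 5.996 ± 0.07 in irradiated wild type and 6.07 ± 0.15 in unirradiated wild type cells (n = 4 each). All 16 values lay between 5.86 and 6.21. The averaged irradiation difference was 0.00 with a 95% interval of -0.13 to 0.14, so these data leave room for changes up to that size.

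**Figure D2:**
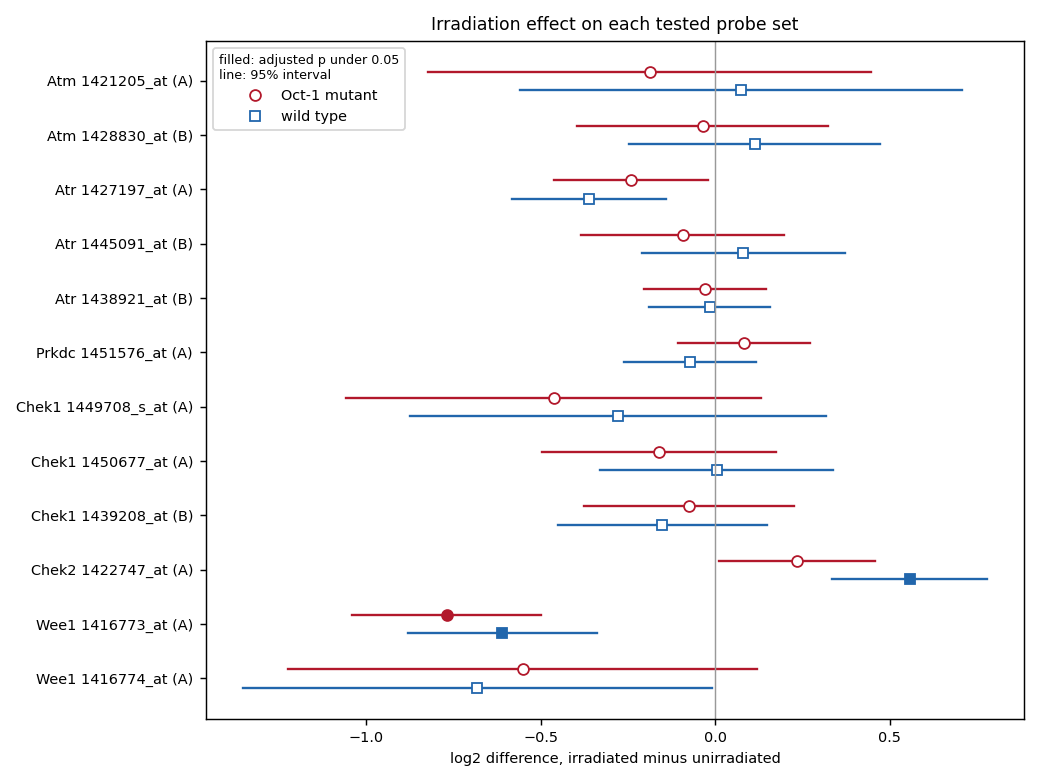
Irradiated minus unirradiated log2 difference (x axis) of the 12 tested probe sets (y axis, array type in brackets) in Oct-1 mutant cells (circles) and wild type cells (squares), with 95% intervals as lines and filled symbols at an adjusted p under 0.05. The 3 filled symbols are Wee1 1416773_at in both genotypes (-0.77 and -0.61) and Chek2 in wild type cells (0.56).

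The irradiation effect was compared between genotypes by the difference of the 2 effects, Oct-1 mutant minus wild type. Limma called 0 of the 12 probe sets and 0 of all 27083 tested (0.00%), of which 394 had an unadjusted p under 0.05. Chek2 was the only kinase probe set with an unadjusted p under 0.05 (difference -0.32, SE 0.15, unadjusted p = 0.045, adjusted p = 1.00). For Wee1 1416773_at the difference was -0.16 (95% interval -0.54 to 0.22) and for Atr 1427197_at it was 0.12 (95% interval -0.19 to 0.43). The 12 differences ranged between -0.32 and 0.15. A call of Chek2 in wild type and not in Oct-1 mutant cells is thus not shown to be a difference between genotypes.

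Genotype called 1 of the 12 probe sets in irradiated cells (2.09% of all probe sets) and 1 in unirradiated cells (2.16% of all), both times Atm 1421205_at downward in Oct-1 mutant cells. Averaged over irradiation it called 2, Atm 1421205_at and Atr 1427197_at, both downward, against 6.25% of all and 10.6% of those on array A. The genotypes did not overlap for 1 of the 12 in irradiated cells (8.15% of all) and for 2 in unirradiated cells (6.52% of all). The median difference over the 12 was -0.19 in irradiated and -0.11 in unirradiated cells.

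Atm, the first responder to double-strand breaks, read 5.42, 4.89, 4.50 and 5.13 on probe set 1421205_at in irradiated Oct-1 mutant cells, against 6.48, 6.58, 6.36 and 6.30 in irradiated wild type cells. In unirradiated cells it read 5.67, 6.04, 4.68 and 4.31 in Oct-1 mutant cells, against 6.60, 6.12, 6.45 and 6.26 in wild type cells. All 8 Oct-1 mutant samples lay below all 8 wild type samples, and 4 of the 8 mutant values were under 4.97, the mean that the filter required. Background was not measured. The Oct-1 mutant samples also spread more widely, with SDs of 0.39 in irradiated and 0.81 in unirradiated cells, against 0.13 and 0.21 in wild type cells.

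Atm fell by 1.44 in irradiated Oct-1 mutant cells relative to irradiated wild type cells (SE 0.30, adjusted p = 0.0108), with -1.37 within the first run and -1.52 within the second. In unirradiated cells it fell by 1.18 (SE 0.30, adjusted p = 0.0377), with -0.51 in the first run, where it was not called (adjusted p = 0.289), and -1.86 in the second. This call in unirradiated cells was lost on leaving out any 1 of 6 extracts. The adjusted p was then 0.122 without Oct-1 mutant unirradiated replicate 3, 0.107 without its replicate 4, and 0.107, 0.0609, 0.0919 and 0.0662 without wild type unirradiated replicates 1, 2, 3 and 4. Averaged over irradiation, Atm fell by 1.31, to 0.40 of the wild type level (SE 0.21, adjusted p = 0.00067), and leaving out any 1 extract kept the call. From low to high the levels were 4.98 ± 0.39 in irradiated Oct-1 mutant, 5.17 ± 0.81 in unirradiated Oct-1 mutant, 6.36 ± 0.21 in unirradiated wild type and 6.43 ± 0.13 in irradiated wild type cells. Irradiation did not pass the test on this probe set, with differences of -0.19 in Oct-1 mutant cells (SE 0.30, adjusted p = 0.833) and 0.07 in wild type cells (SE 0.30, adjusted p = 0.964).

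The second Atm probe set, 1428830_at on array B, gave no call for genotype. It read 6.36, 6.44, 6.19 and 6.01 in irradiated Oct-1 mutant cells, against 6.52, 6.81, 6.64 and 6.11 in irradiated wild type cells. In unirradiated cells it read 6.35, 6.57, 6.40 and 5.82 in Oct-1 mutant cells, against 6.53, 6.47, 6.21 and 6.41 in wild type cells. The genotypes overlapped in both states, and the averaged difference was -0.19 (SE 0.12, 95% interval -0.45 to 0.06, adjusted p = 0.427). The array A probe set has a RefSeq mRNA as its target record and the array B one a cDNA clone, and which transcript forms each reads was not tested.

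Atr 1427197_at was lower in Oct-1 mutant cells when averaged over irradiation, with a difference of -0.28 (SE 0.07, adjusted p = 0.0228). It was -0.33 in the first run and -0.23 in the second, and neither run alone called it (adjusted p = 0.0846 and 0.218). Irradiated cells differed by -0.22 (SE 0.10, adjusted p = 0.347) and unirradiated cells by -0.34 (SE 0.10, adjusted p = 0.0927); only the unirradiated genotypes did not overlap. The levels were 6.15 ± 0.11 in irradiated Oct-1 mutant, 6.36 ± 0.19 in irradiated wild type, 6.39 ± 0.05 in unirradiated Oct-1 mutant and 6.72 ± 0.15 in unirradiated wild type cells. The 2 middle groups lay within each other's spread. Of the other kinases, none was called by genotype, with averaged differences of 0.11 for Chek2 (SE 0.07, adjusted p = 0.440), 0.04 for Prkdc (SE 0.06, adjusted p = 0.746), -0.03 for Chek1 1449708_s_at (SE 0.20, adjusted p = 0.961) and -0.18 for Wee1 1416773_at (SE 0.09, adjusted p = 0.242).

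Of the 12 fibroblast markers on array A, 3 were called by genotype, all higher in Oct-1 mutant cells, and of the 4 tested neural markers there 0 were called, against 10.6% of all probe sets on that array. All 12 fibroblast markers passed the filter on array A, and their mean log2 level was 11.84 to 12.25 in irradiated Oct-1 mutant samples and 12.04 to 12.44 in unirradiated ones, against 11.50 to 11.78 in irradiated wild type samples and 11.73 to 11.94 in unirradiated ones. Dcn, a matrix proteoglycan, rose by 2.01 in Oct-1 mutant cells (SE 0.23), Thy1 by 0.49 (SE 0.14) and Pdgfra by 0.49 (SE 0.11). On array B, 0 of the 3 tested fibroblast markers, Pdgfra among them, were called by genotype, and Dcn lay below the filter there. The neural markers on array A had mean levels of 5.77 to 6.02 and 5.72 to 5.91 in irradiated and unirradiated Oct-1 mutant samples, against 6.07 to 6.55 and 6.07 to 6.39 in the wild type samples, and Map2 on array B fell by 0.80 (SE 0.16). All 5 endothelial markers, 4 of 7 macrophage and blood markers and 4 of 6 epithelial markers lay below the filter on array A. One of these, the epithelial adhesion gene Epcam, was well above the filter of 3.36 on its array B probe set, at 9.37 to 9.58 and 9.37 to 9.74 in irradiated and unirradiated Oct-1 mutant samples, against 9.14 to 9.46 and 9.39 to 9.48 in the wild type samples, and was not called there. Krt18 on array A rose by 0.46 in Oct-1 mutant cells (SE 0.11). With irradiation averaged over genotypes, 4 of the 12 fibroblast markers on array A were called, all downward, against 12.9% of all probe sets there. They were Pdgfra (-0.72), Pdgfrb (-0.56), Prrx1 (-0.42) and Twist1 (-0.49), and the median over the 12 was -0.03. On array B, 0 of the 3 tested fibroblast markers, Col1a2, Pdgfra and Prrx1, were called in that comparison, with a median of -0.21. The part of these markers in the kinase differences was not tested.

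**Figure D3:**
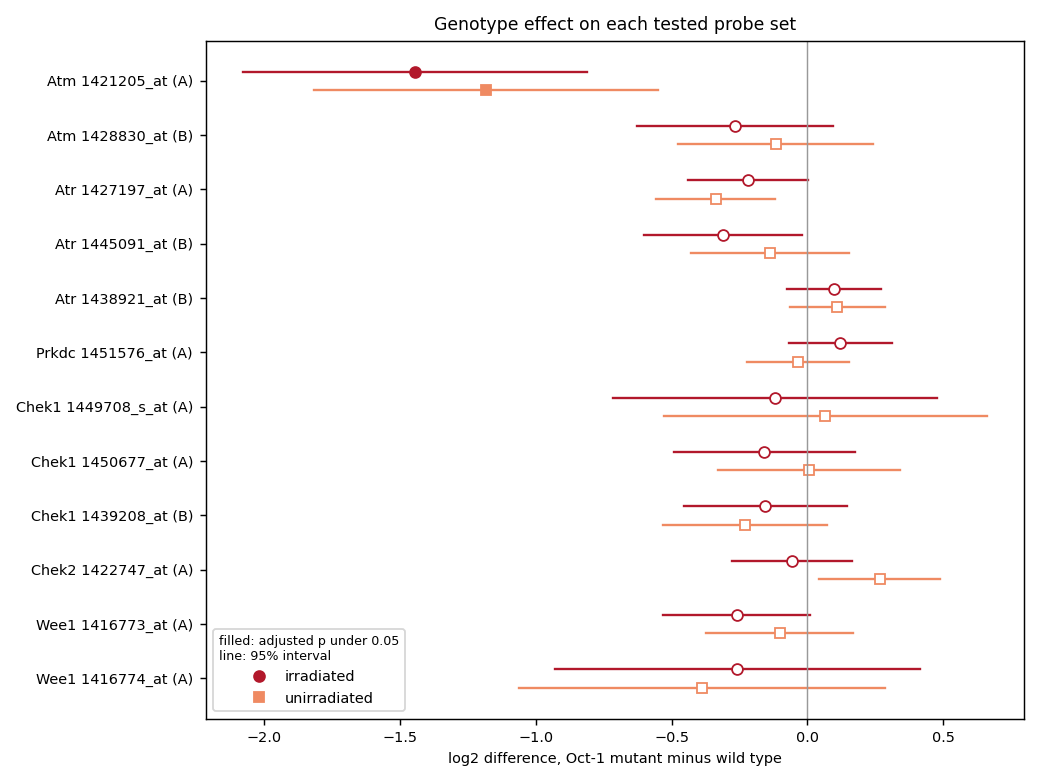
Oct-1 mutant minus wild type log2 difference (x axis) of the 12 tested probe sets (y axis, array type in brackets) in irradiated (circles) and unirradiated cells (squares), with 95% intervals as lines and filled symbols at an adjusted p under 0.05. Atm 1421205_at is the only filled one (-1.44 and -1.18), while Atm 1428830_at on array B lies at -0.27 and -0.12.

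Agreement among probe sets of a gene was tested on the difference between 2 probe sets in each extract. Labels were exchanged only within the strata of the other factor and the number run, which gives 1296 arrangements and a smallest possible p of 0.0015 in each of 16 exact permutation tests, two-sided. The 2 Atm probe sets differed in their genotype effect by -1.12 (array A minus array B, -0.79 in the first run and -1.45 in the second, exact permutation p = 0.0015, adjusted p = 0.0247). Atr 1427197_at and 1438921_at differed in theirs by -0.38 (exact permutation p = 0.0062, adjusted p = 0.0494), since the first was lower in Oct-1 mutant cells and the second was 0.10 higher without a call. Atr 1445091_at lay at -0.23 (SE 0.10, adjusted p = 0.304), which differed from 1427197_at by 0.05 in size (exact permutation p = 0.647, adjusted p = 0.815).

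For irradiation, the 2 Wee1 probe sets differed by -0.07 (exact permutation p = 0.730, adjusted p = 0.834). The effect on Atr 1427197_at minus that on the array B probe sets was -0.28 for 1438921_at and -0.29 for 1445091_at, with an adjusted p of 0.0741 in both exact permutation tests. The effect on Chek1 1449708_s_at minus that on 1450677_at was -0.29, also with an adjusted p of 0.0741 by the exact permutation test. The remaining tests had adjusted p-values of 0.0741 to 0.907. Chek2 and Prkdc had 1 probe set each, so their values have no such check.

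**Figure D4:**
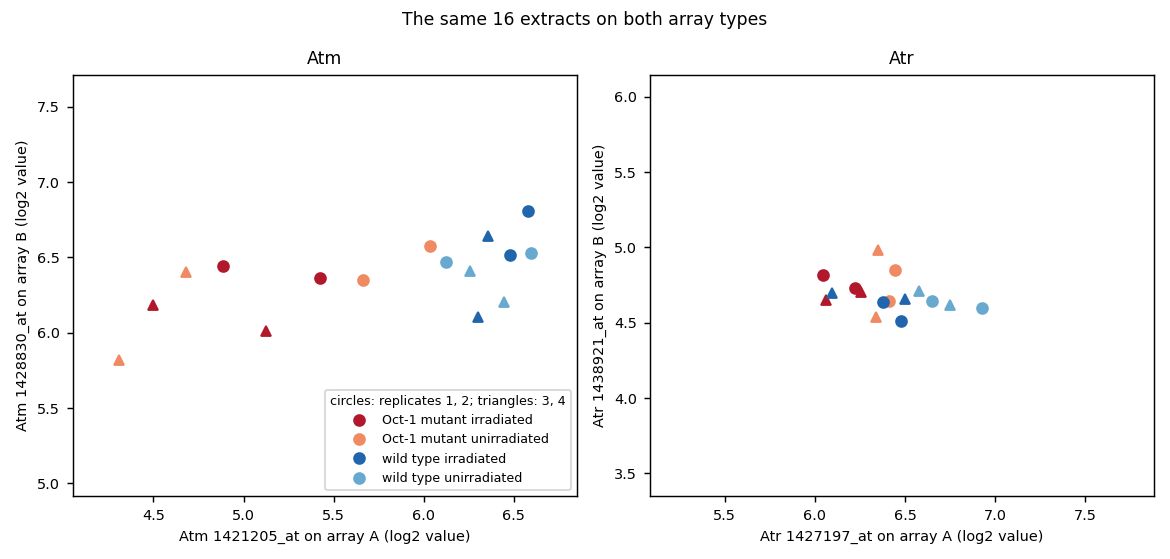
The log2 value of the array A probe set (x axis) against that of an array B probe set (y axis) of Atm and Atr in the same 16 extracts, coloured by group, with both axes spanning the same log2 range within a panel. The 8 Oct-1 mutant points of Atm lie left of the wild type points while their heights overlap.

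The genes whose pattern lay closest to each kinase over the 16 arrays were found by Pearson correlation after each number run's mean was removed. These values describe likeness over arrays that share group and hybridisation, and are given with no test. For Wee1 1416773_at the 3 closest on array A were Kif18a (r = 0.955), Dbf4 (r = 0.943) and Aspm (r = 0.939). For Chek2 they were Rab21 (r = 0.899), Ndufb6 (r = 0.895) and Ell (r = 0.890). For Atm 1421205_at they were Gnb4 (r = 0.946), Laptm4b (r = 0.937) and Ptbp2 (r = 0.936), and for Atr 1427197_at Usp10 (r = 0.928), Hoxa10 (r = 0.927) and Eps8 (r = 0.913). Chek1 1449708_s_at lay closest to Dennd4c (r = 0.875), Esf1 (r = 0.853) and Ecd (r = 0.847), and Prkdc to Stambp (r = 0.785), Ogg1 (r = 0.747) and Txn1 (r = 0.742). Among the kinases, Wee1 1416773_at correlated with Chek1 1449708_s_at (r = 0.728), Atr 1427197_at (r = 0.727) and Chek2 (r = -0.708). Other tested probe sets of the same genes lay lower, with r = 0.237 for Chek1 1450677_at and 0.307 for Chek1 1439208_at. The array B probe sets of Atr had r = -0.055 for 1438921_at and 0.016 for 1445091_at. Chek2 and Atr 1427197_at had r = -0.752.

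The partners of these kinases on array A were read from lists in which each gene is represented by its brightest probe set, for irradiation averaged over genotypes. In that comparison 25 of the 77 list genes tested were called (32.5%), against 12.9% of all tested array A probe sets, of which 7.38% rose and 5.47% fell. The lists were chosen with earlier results of these data known, and they hold 1 probe set a gene. The 12.9% counts every tested probe set, so the shares are unlike, and enrichment of the lists was not tested. Of the 13 tested cell cycle genes that the checkpoint acts on, 7 fell and 0 rose, with a list median of -0.24 against 0.01 over all probe sets of array A. They were Plk1 (-1.71, SE 0.06), Aurka (-1.66, SE 0.08), Cdc25b (-1.30, SE 0.12), Cdc25c (-0.75, SE 0.13), Ccna2 (-0.67, SE 0.10), Ccnb2 (-0.46, SE 0.09) and Cdk1 (-0.24, SE 0.05). Cdc25b and Cdc25c are among the phosphatases that undo the mark Wee1 sets on Cdk1. On array B, 1 of the 5 tested genes of this list was called, against 2.14% of all tested probe sets there. It was Cdc25c, which fell by 0.46 (SE 0.11), and the list median there was -0.01. Of the 11 genes of the p53 arm and its phosphatases, 6 rose and 0 fell, with a median of 0.42. Mdm2, the ubiquitin ligase of p53, rose by 1.67 (SE 0.21) and the kinase inhibitor Cdkn1a by 1.31 (SE 0.11). Ppm1d, the phosphatase that counters Atm and Chek2, rose by 0.82 (SE 0.15). The others called on array A were Btg2 (1.02, SE 0.08), Sesn2 (0.84, SE 0.10) and Ccng1 (0.42, SE 0.11). On array B, 1 of the 4 tested genes of this list was called, Ppm1d with a rise of 0.59, and the list median there was 0.14.

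Of 13 proliferation markers, Pcna (0.29, SE 0.05), Mcm3 (0.27, SE 0.08) and Mcm7 (0.31, SE 0.05) rose, and Mki67 (-0.93, SE 0.08) and Cdc20 (-0.85, SE 0.05) fell, beside the fall of Wee1. Their part in it was not tested. Of the 9 tested kinase relatives, Plk3 rose by 0.29 (SE 0.07) and Dbf4, the activating subunit of the kinase Cdc7, fell by 0.89 (SE 0.07). Of the 16 damage sensors and loading factors, 2 were called, a share near that of all array A probe sets, and the list median was 0.00. They were Rad50 (0.29, SE 0.08) and Nbn (-0.21, SE 0.06), both parts of the complex that recruits Atm. The 11 mediators also had a median of 0.00, with Tipin (0.33, SE 0.05) and Babam1 (0.18, SE 0.05) called upward and H2ax, the histone that Atm marks, falling by 0.51 (SE 0.07). Of the 4 tested end joining partners of Prkdc, 0 were called.

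Genotype, averaged over irradiation, called 5 of the 77 list genes on array A (6.49%), a share below the 10.6% of all probe sets on that array, so the count is not a result about these lists. They were Dbf4 (-0.24, SE 0.07), Rpa1 (-0.16, SE 0.05), Rpa3 (-0.36, SE 0.09), Brca1 (-0.30, SE 0.08) and Mcm3 (-0.30, SE 0.08), all lower in Oct-1 mutant cells. Rpa1 and Rpa3 encode subunits of replication protein A, the platform on which Atr is activated. The lists of cell cycle genes, the p53 arm and end joining had 0 called in that comparison.

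**Figure D5:**
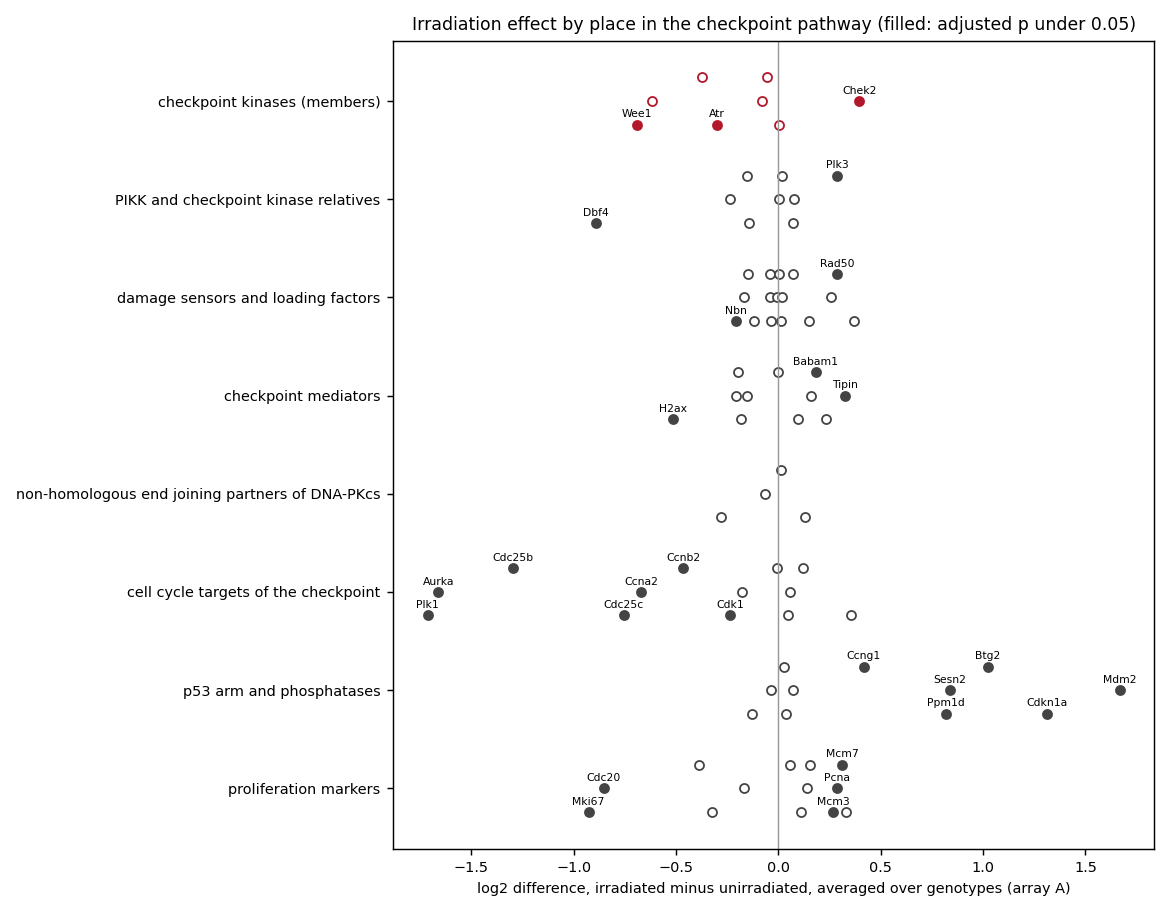
Irradiated minus unirradiated log2 difference averaged over genotypes (x axis) of the tested array A genes, by place in the checkpoint pathway (y axis), with filled points at an adjusted p under 0.05. The called cell cycle genes lie between Plk1 (-1.71) and Cdk1 (-0.24) and the called genes of the p53 arm between Ccng1 (0.42) and Mdm2 (1.67), while the called kinases Wee1, Atr and Chek2 lie at -0.69, -0.30 and 0.40.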

How the data were processed

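Total RNA of 16 extracts was measured on 2 Affymetrix array types, 32 samples in all, grouped by the genotype and irradiation given in the labels. The authors deposited log2 probe set values, with the log base taken here from their range (array A 0.265 to 15.751, array B 0.097 to 15.511). The labels do not name how probe sets were summarised. Array A had medians of 6.16 to 6.28 and array B of 3.67 to 3.78, and no scaling was added. Values were named through the platform annotation, with symbols updated by gene identifier.

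Each array type was fitted with limma 3.58.1 (R 4.3.3) as 4 group means, with moderated variances that follow intensity, and Benjamini-Hochberg adjustment within array type and comparison. Control probe sets and probe sets with a mean under the 40th percentile were not tested, so 13576 remained on array A, at a mean from 4.97 upward, and 13507 on array B, from 3.36 upward. The fit was tested on simulated data. Figures used Python 3.11.15 with matplotlib 3.10.9. The members and the gene lists were chosen with earlier results of these data known. Named were all probe sets of the 6 kinases, the called genes of each list (all of up to 6, otherwise the 4 with the smallest adjusted p in each direction, with 3 more cell cycle genes added after their values were seen) and the 3 closest genes of each kinase. The replicate number of 1 sample was taken from its array B label.

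Same-numbered replicates of different groups deviated together from their group means, with correlations of 0.32 to 0.72 for array A and 0.24 to 0.60 for array B. Their medians were 0.58 and 0.44. Replicates of the same number run but another number correlated about as well, with medians of 0.56 and 0.40. Replicates of different runs had medians of -0.58 and -0.43. By this measure the samples group by run, and pairing by number within a run is not shown. Fits with the replicate number or the run as a block, each run alone, other filters, quantile normalization, other variance settings, array weights and leaving out each extract were tried.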

Additional observations from a re-analysis of the deposited data

Results flagged for a closer look

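Of 56 groups of 4 replicates over the 14 probe sets, 2 held a sample far from the other 3, and chance gives this in about 1 group in 20. Oct-1 mutant unirradiated replicate 2 read 6.58 on Chek1 1450677_at, while the other replicates of that group read 5.84 to 5.91. Wild type irradiated replicate 2 read 6.30 on Wee1 1416774_at, while the others read 5.64 to 5.70. The irradiation effect on Prkdc was 0.08 in Oct-1 mutant cells and -0.07 in wild type cells, a difference of 0.15 that limma did not call (adjusted p = 1.00).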

How the results depend on the processing

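The counts of called kinase probe sets moved as follows. Fits with a replicate block called 5 for irradiation averaged over genotypes (against 3), adding Chek1 1449708_s_at and Wee1 1416774_at, and 2 for irradiation in Oct-1 mutant cells (against 1), and the number run block gave the same 5 and 2. The number run block also called 4 for irradiation in wild type (against 2) and 2 for genotype in unirradiated cells (against 1). The replicate block called 3 for irradiation in wild type, and beside the calls given for Atr, Chek1 and Wee1 it changed no other call. Over all probe sets the replicate block called 1739 for genotype in unirradiated cells, 1631 in irradiated cells and 3768 averaged (against 584, 565 and 1694). The number run block called 1632 for irradiation in wild type, 1927 in Oct-1 mutant cells and 3984 averaged, and 1682, 1621 and 3711 for genotype in unirradiated cells, irradiated cells and averaged. The second run alone called 366 for irradiation in either genotype and 1209 averaged. The stricter 60th percentile filter left Wee1 1416773_at as the only tested kinase probe set on array A and kept those of array B. It called 1 for irradiation in wild type, 1 for averaged irradiation, and 0 for genotype in irradiated cells, in unirradiated cells and averaged. With no filter, genotype in unirradiated cells called 0. The first run alone called 0 for genotype in unirradiated cells and 1 for genotype averaged, and the second run alone called 0 for irradiation in wild type, 1 for averaged irradiation and 1 for genotype averaged. Each run holds 2 replicates a group. Leaving out 1 extract gave 3 to 4 for averaged irradiation, 2 for irradiation in wild type, 1 in Oct-1 mutant cells, 0 for the difference of effects, 1 for genotype in irradiated cells, 0 to 1 in unirradiated cells and 2 averaged. No called value changed sign under any of these settings. Quantile normalization, no intensity trend, robust moderation and array weights kept every count within 1.5 times.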
